A study of Sus scrofa with 9 samples.

Results

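Pregnancy-associated plasma protein A (PAPPA) and the genes of the insulin-like growth factor (IGF) axis were followed across 9 testis arrays. The set held 10 genes: PAPPA, IGF1, IGF2, IGF1R, IGF2R, IGFBP2, IGFBP3, IGFBP4, IGFBP5 and IGFBP6. Probes were taken where the gene name on the array, or a symbol in brackets in the probe's description, was that of a member. This rule found 27 probes of 9 genes, since the array writes PAPPA as PAPP-A, and its 3 probes were added through their RefSeq transcript accession. The resulting 30 probes stood among 60889 non-control probes. PAPPA was chosen by its measured signal, for a low value in the t(1;14) testis, so its values are described here without a test, whereas the other 9 genes were tested. Another 7 spots, left outside the set by their names, repeated a member probe's sequence (5 spots) or were annotated to a member's transcript (2 spots), and their values are given beside the members.

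Total RNA came from testicular biopsies of pigs (Sus scrofa) in 3 groups of 3 arrays, all from males with 38 chromosomes. The t(1;14) arrays came from 1 boar with oligo-astheno-teratospermia (few, poorly motile and malformed sperm) that carried a balanced reciprocal translocation between chromosomes 1 and 14. The oligospermic arrays came from 1 boar with few sperm and a normal karyotype. The control arrays came from fertile boars with a normal karyotype, of which the study lists 3. Which boar each array holds is not given in the sources used here. In the t(1;14) and oligospermic groups the arrays were separate biopsies or extractions from 1 boar. Spread among the control arrays may also hold differences between boars. The p-values thus measure the spread between arrays and do not give that between animals of each group. A difference between t(1;14) and the other groups cannot be told apart from a difference between individual boars. The design asks which transcripts differ in the testis of the carrier, with the oligospermic boar as a second comparison.

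IGF1 and IGF2 are secreted growth factors that act mainly through the receptor tyrosine kinase IGF1R, while IGF2R binds IGF2 and takes it into the cell for breakdown. In tissue fluid both ligands are held by IGF binding proteins, and PAPPA is a secreted metalloprotease that cuts IGFBP4 and IGFBP5, which frees the ligand near its receptor. In the testis the axis is known for roles in the growth of Sertoli cells and in Leydig cell steroid synthesis.

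Each probe was a 60-base oligonucleotide. The probes of PAPPA are printed because they did not give the same result, and 1 each of IGFBP4 and IGFBP5 because these proteins are substrates of PAPPA. The IGFBP4 probe printed is the one annotated to a RefSeq transcript, and it is the dimmer of the pair. The probe that carries the IGFBP4 values that passed, A_72_P351938, is not printed, since the sources used here do not say whether it lies in the coding part of the transcript. Every base is in lower case, 5′ to 3′, as the scanner files hold it, and each of the 5 sequences reads without a stop codon in at least 1 frame.
PAPPA A_72_P444567: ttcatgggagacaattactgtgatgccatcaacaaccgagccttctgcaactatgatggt
PAPPA A_72_P186376: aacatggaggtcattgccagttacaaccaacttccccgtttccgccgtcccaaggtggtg
PAPPA A_72_P414508: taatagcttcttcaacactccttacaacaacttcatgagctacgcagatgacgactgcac
IGFBP4 A_72_P441554: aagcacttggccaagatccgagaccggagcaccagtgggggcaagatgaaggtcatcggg
IGFBP5 A_72_P146706: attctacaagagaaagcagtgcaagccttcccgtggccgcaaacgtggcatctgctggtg
The array annotation places the PAPPA probes at base 4686 for A_72_P444567, base 1002 for A_72_P186376 and base 1874 for A_72_P414508 of the sequence each was designed on. They share no run longer than 7 bases. In the RefSeq gene table of Sscrofa11.1, PAPPA, IGF1R and IGF2R lie on chromosome 1, which is rearranged in the carrier, IGF2 on 2, IGF1 and IGFBP6 on 5, IGFBP4 on 12, IGFBP2 and IGFBP5 on 15, and IGFBP3 on 18. The study used the earlier Sscrofa10.2 assembly, so no genome positions are given, and distances to the breakpoints were not analysed here.

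All values below are log2 of the processed spot intensity after quantile normalization over the 9 arrays, and they are comparable for 1 probe between arrays but not between probes. Between 37087 and 40632 probes per array were well above background by the scanner software's flag, and with 3 arrays per group the array number sets the precision. The median within-group SD was 0.24 for control, 0.18 for oligospermic and 0.13 for t(1;14) arrays. The arrays sat on 3 slides, with all 3 groups on each. A probe was said to pass at an adjusted p of at most 0.01 in limma, with Benjamini-Hochberg adjustment over all probes tested, and to be differential if its log2 difference was also at least 2 in size. Over all 40643 probes tested between t(1;14) and control, 31.2% passed and 5.61% were differential.

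The PAPPA signal of probe A_72_P444567 was lower in the t(1;14) testis than in both other groups. It was 7.72, 7.78 and 7.03 on the 3 control arrays, 6.97, 6.82 and 7.30 on the oligospermic arrays, and 3.57, 2.80 and 2.82 on the t(1;14) arrays. Every t(1;14) array lay below every other array, while control and oligospermic arrays overlapped. The log2 difference of t(1;14) from control was -4.45 ± 0.29 (SE, n = 3 arrays per group), and within slides it ranged from -4.96 to -3.46. From the oligospermic arrays it was -3.97 ± 0.24, and between oligospermic and control it was -0.48 ± 0.24. Only 1 of the 3 t(1;14) arrays was well above background for this probe. With the other t(1;14) arrays raised to the lowest signal well above background on each, the t(1;14) signal was 14.6-fold lower than control and 10.4-fold lower than oligospermic. The t(1;14) values thus lie near background, and with a background correction that adds an offset of 50 (normexp) the differences were -1.88 from control and -1.50 from oligospermic. In these bulk samples, fewer cells of a type and less RNA per cell cannot be told apart.

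The same 60-base sequence was spotted a second time on the array under a transcript name. This spot read 7.73, 7.75 and 7.06 in control, 7.01, 6.86 and 7.01 in oligospermic, and 4.01, 4.28 and 3.61 in t(1;14) arrays. Its difference of t(1;14) from control was -3.55 ± 0.26, or 11.7-fold lower, with 2 of the 3 t(1;14) arrays well above background, so the spots of 1 sequence placed the fall at different sizes and in the same direction.

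The other PAPPA sequences did not show the fall. Probe A_72_P186376 read 4.05, 3.91 and 3.82 in control, 3.63, 3.43 and 4.16 in oligospermic and 4.06, 3.49 and 3.72 in t(1;14) arrays, and all groups overlapped. It was dim: 2 control arrays, 1 oligospermic and 1 t(1;14) array were well above background. Probe A_72_P414508 was well above background on 0 of 9 arrays, at 1.29 to 1.33 in control, 1.30 to 1.31 in oligospermic and 1.82 to 2.91 in t(1;14) arrays. The order there was the reverse, with all t(1;14) arrays above the others, at a level too dim to be tested. The mean over the PAPPA probes tested differed by -2.31 between t(1;14) and control. The low PAPPA value of the t(1;14) testis thus comes from 1 of 3 probe sequences, with 1 sequence near background in all groups and 1 below it.

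**Figure D1:**
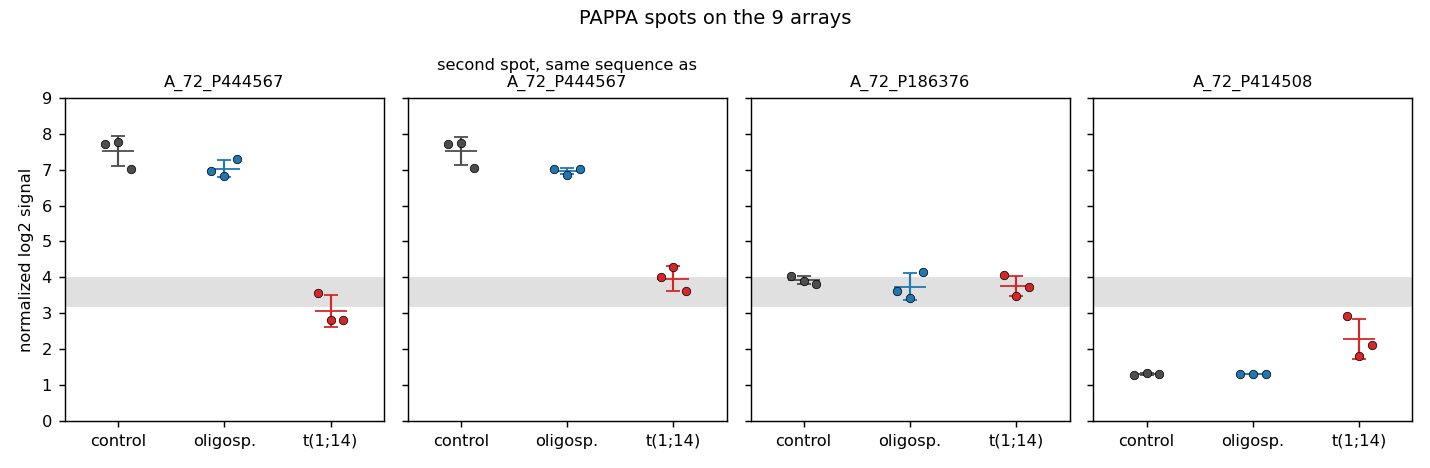
Normalized log2 signal (vertical axis) of the PAPPA probes and of the second spot with the sequence of A_72_P444567 in control, oligospermic (oligosp.) and t(1;14) arrays. Points are single arrays, bars are the mean ± SD of 3 arrays, and the grey band spans the lowest signal well above background on each of the 9 arrays. The first 2 panels show t(1;14) arrays between 2.80 and 4.28 and all other arrays at 6.82 or above. In the third panel the groups overlap. In the fourth the t(1;14) arrays lie above the others, at 1.82 to 2.91 against 1.29 to 1.33, all below the grey band.

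Of the ligands, neither IGF1 nor IGF2 had a probe that passed between t(1;14) and control. The IGF1 probe of highest signal, A_72_P232282, read 6.71, 6.82 and 7.17 in control, 6.60, 6.99 and 7.02 in oligospermic and 6.26, 6.23 and 6.33 in t(1;14) arrays. All 3 t(1;14) arrays lay below all 6 others. The difference from control was -0.62 ± 0.15, with an adjusted p of 0.0142 in limma, and from oligospermic it was -0.59 ± 0.13, with an adjusted p of 0.00787. A second spot of the same sequence gave -0.70 (adjusted p = 0.0211, limma) and -0.43 (adjusted p = 0.114, limma), so the fall against oligospermic did not pass there. On the first spot it passed under 5 of 16 alternatives in this direction, with the adjusted p reaching 0.0304, and the mean of the IGF1 probes tested gave 0.38, the opposite sign.

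A second IGF1 sequence moved the other way. Probe A_72_P185381 read 4.64, 4.83 and 6.36 in control, 4.38, 4.02 and 4.19 in oligospermic and 5.50, 5.55 and 5.61 in t(1;14) arrays. The t(1;14) arrays were all above the oligospermic arrays, by 1.36 ± 0.12 with an adjusted p of 1.35e-04 in limma, and overlapped the control arrays because of control array 3. The IGF1 probes share no run longer than 9 bases. The third IGF1 probe, A_72_P306168, was well above background on no array and was not tested.

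IGF2 is best known as a growth factor of the fetus. Its highest probe, A_72_P599193, read 7.33, 7.39 and 7.83 in control, 7.02, 7.23 and 7.05 in oligospermic and 7.53, 7.64 and 7.61 in t(1;14) arrays. The t(1;14) and control arrays overlapped, and the difference was 0.08 (95% interval -0.31 to 0.46). Against oligospermic, t(1;14) was higher by 0.49 (adjusted p = 0.00487, limma), which passed under 8 of 16 alternatives with the adjusted p reaching 0.0386. Probe A_72_P544532 was also higher, by 0.69 (adjusted p = 0.00789, limma), and the second spot of its sequence by 0.61 (adjusted p = 0.00466, limma). The other IGF2 probes, A_72_P537638, A_72_P303139 and A_72_P537644, differed by 0.26, 0.17 and 0.05 and did not pass. Without oligospermic array 1 they differed by 0.01, 0.04 and -0.16.

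IGF1R, the receptor that carries the growth signal, did not pass in any comparison. Probe A_72_P305924 read 8.92, 8.36 and 8.60 in control, 8.86, 8.79 and 8.56 in oligospermic and 8.81, 9.06 and 8.83 in t(1;14) arrays, with overlap throughout. The difference of t(1;14) from control was 0.27 (95% interval -0.15 to 0.69, adjusted p = 0.235, limma). Probe A_72_P257757 had all t(1;14) arrays, at 8.88 to 8.99, above all control arrays, at 7.99 to 8.72, with a difference of 0.57 and an adjusted p of 0.0505 in limma. The remaining IGF1R probes were too dim to be tested: A_72_P440946 was well above background on 1 of 9 arrays and A_72_P146851 on none.

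The 6 probes of IGF2R, which clears IGF2 from the cell surface, did not move alike. Probe A_72_P101256 read 3.21, 3.31 and 3.23 in control, 3.45, 3.86 and 3.32 in oligospermic and 4.78, 4.39 and 4.80 in t(1;14) arrays. All t(1;14) arrays lay above all others. Only 1 control array and no oligospermic array was well above background, so the probe entered the test through the t(1;14) arrays alone, and its adjusted p of 6.31e-04 against control and 0.00226 against oligospermic (limma) lend no support. With dim arrays raised to the lowest signal well above background, the t(1;14) signal was 2.10-fold higher than control, and it was at least 1.95-fold higher than oligospermic.

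The other IGF2R probes gave smaller values. Probe A_72_P444408 was higher in t(1;14) than in oligospermic arrays by 0.53 (adjusted p = 0.00703, limma), and it differed from control by 0.30 without passing. Probe A_72_P704524, of the highest signal, differed by -0.08 from control and by -0.27 from oligospermic, and neither passed. The remaining probes, A_72_P445023, A_72_P490952 and A_72_P245722, differed from control by 0.36 to 0.40 and share 28 to 57 bases with each other, so they are not independent readings. Without control array 2, A_72_P490952 differed by 0.22 and A_72_P245722 by 0.15. None of them passed. With slide as a block, A_72_P445023 (adjusted p = 0.00693, limma) and A_72_P245722 (adjusted p = 0.00392, limma) passed as higher against oligospermic. A second spot of the sequence of A_72_P245722 differed from control by 0.29 and from oligospermic by 0.09, and neither passed. A spot annotated to an IGF2R transcript, A_72_P513762, differed from control by 0.91 (adjusted p = 0.0109, limma) and was higher than oligospermic by 1.13 (adjusted p = 0.00132, limma).

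The binding proteins were read by 9 probes of 5 genes. Of these, 6 had every t(1;14) array above every control array and 8 above every oligospermic array, where 62% and 70.9% of all probes tested had groups without overlap in either direction. By the test, 3 passed against control, where 31.2% of all probes tested passed and 15.6% passed as higher. Against oligospermic 6 passed, where 49.1% of all passed and 27.1% as higher. Those that passed were all higher in t(1;14). The IGFBP2 probes share 52 bases and 2 of the IGFBP6 probes 28, so the 9 are not independent readings, and 1 IGFBP4 probe entered the test through the t(1;14) arrays alone.

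IGFBP4, which PAPPA cuts in the presence of IGF, had the largest rise of the set. Probe A_72_P351938 read 6.62, 6.51 and 7.09 in control, 6.86, 6.36 and 6.05 in oligospermic and 8.26, 8.69 and 8.48 in t(1;14) arrays. Every t(1;14) array exceeded the highest of the other 6 by more than 1 log2 unit. The difference from control was 1.74 ± 0.20, or 3.33-fold higher (adjusted p = 9.32e-04, limma), and 1.16 to 2.07 within slides. From oligospermic it was 2.05 ± 0.23, or 4.15-fold higher (adjusted p = 3.92e-04, limma), which made this the 1 differential probe among the 27 other than those of PAPPA. The rise passed under all 16 alternatives in both comparisons, at 1.26 to 1.91 from control and 1.42 to 2.27 from oligospermic.

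The second IGFBP4 probe, A_72_P441554, whose sequence is printed above, was dim. It read 2.77, 2.32 and 2.98 in control, 3.40, 1.57 and 2.65 in oligospermic and 3.45, 5.10 and 4.02 in t(1;14) arrays, and was well above background on 2 arrays, both t(1;14). The t(1;14) arrays were all higher, at least 1.53-fold against control and at least 1.41-fold against oligospermic. The probe entered the test through the t(1;14) arrays alone, and neither difference passed. A spot annotated to the IGFBP4 transcript, CUST_7626_PI428644611, read 3.94 to 4.62 in control and 4.95 to 5.19 in t(1;14) arrays. It was 1.72-fold higher than control (adjusted p = 0.0156, limma) and differed from oligospermic by 1.00 (adjusted p = 0.0115, limma), so it did not pass either. Only 1 oligospermic array was well above background for it, so against oligospermic it too entered the test through the t(1;14) arrays alone. With slide as a block both this spot (adjusted p = 0.00986, limma) and A_72_P441554 (adjusted p = 0.00852, limma) passed against oligospermic, and for the same reason these calls lend no support.

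IGFBP5, the other substrate of PAPPA, had 1 probe, A_72_P146706. Its signal was 3.76, 5.31 and 4.81 in control, 5.25, 4.86 and 5.01 in oligospermic and 5.66, 6.15 and 6.01 in t(1;14) arrays. The t(1;14) arrays were all above the others, and control array 1 lay well below the rest of its group. Against control the difference was 1.31 ± 0.39 (adjusted p = 0.0316, limma) and did not pass. It was 0.88 without control array 1 and 0.44 with normexp. Against oligospermic it was 0.90 ± 0.17 and passed (adjusted p = 0.0035, limma). This call stood under 9 of 16 alternatives. With normexp the difference was 0.32 (adjusted p = 0.0163, limma), and the adjusted p in 1 model over all 9 arrays was 0.0529.

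IGFBP2, an abundant binding protein of the fetal period, was higher in t(1;14) than in control on both probes. Probe A_72_P634395 read 7.41, 7.39 and 7.74 in control, 7.64, 7.48 and 7.19 in oligospermic and 8.14, 8.36 and 8.18 in t(1;14) arrays, without overlap of t(1;14) and the others. It was higher than control by 0.71 ± 0.14 (adjusted p = 0.00775, limma) and higher than oligospermic by 0.79 ± 0.14 (adjusted p = 0.0031, limma). The rise against control passed under 8 of 16 alternatives. It did not pass with slide as a block (adjusted p = 0.0203, limma), with the replicate number as a block, with no filter on dim probes, or without control array 1, control array 2 or any t(1;14) array, at an adjusted p of up to 0.0332. The rise against oligospermic passed under 11 of 16. Probe A_72_P178161, which shares 52 bases with it, was higher than control by 0.78 (adjusted p = 0.00377, limma) and differed from oligospermic by 0.82 (adjusted p = 0.0102, limma), which passed with slide as a block (adjusted p = 0.00485, limma).

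IGFBP3, the main carrier of IGF in blood, had 1 probe, A_72_P165666. It read 4.80, 4.41 and 4.47 in control, 4.42, 4.16 and 3.66 in oligospermic and 5.43, 5.24 and 5.11 in t(1;14) arrays, and the t(1;14) arrays were again all highest. The difference from control was 0.70 ± 0.16 (adjusted p = 0.0112, limma), and t(1;14) was higher than oligospermic by 1.19 ± 0.21 (adjusted p = 0.00269, limma). With normexp these were 0.23 and 0.32. The difference from control passed under 4 of 16 alternatives and that from oligospermic under 15. A second spot of this sequence differed by 0.44 from control, with overlap, and by 0.46 from oligospermic (adjusted p = 0.012, limma), so neither passed there.

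IGFBP6, a binding protein that prefers IGF2, followed another order. Probe A_72_P088481 read 10.46, 9.87 and 10.57 in control, 9.63, 9.23 and 9.06 in oligospermic and 10.27, 10.82 and 10.58 in t(1;14) arrays. The oligospermic arrays were the lowest, and control and t(1;14) overlapped. It was higher in t(1;14) than in oligospermic by 1.25 ± 0.20 (adjusted p = 0.00196, limma), and oligospermic differed from control by -0.99 ± 0.24 (adjusted p = 0.247, limma). Probe A_72_P710138, which shares 28 bases with it, gave 1.22 and -1.00. The third probe, A_72_P442649, with a GC content of 81.7%, read 7.48 to 8.16 on all 9 arrays and differed by no more than 0.04 in size in any comparison.

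**Figure D2:**
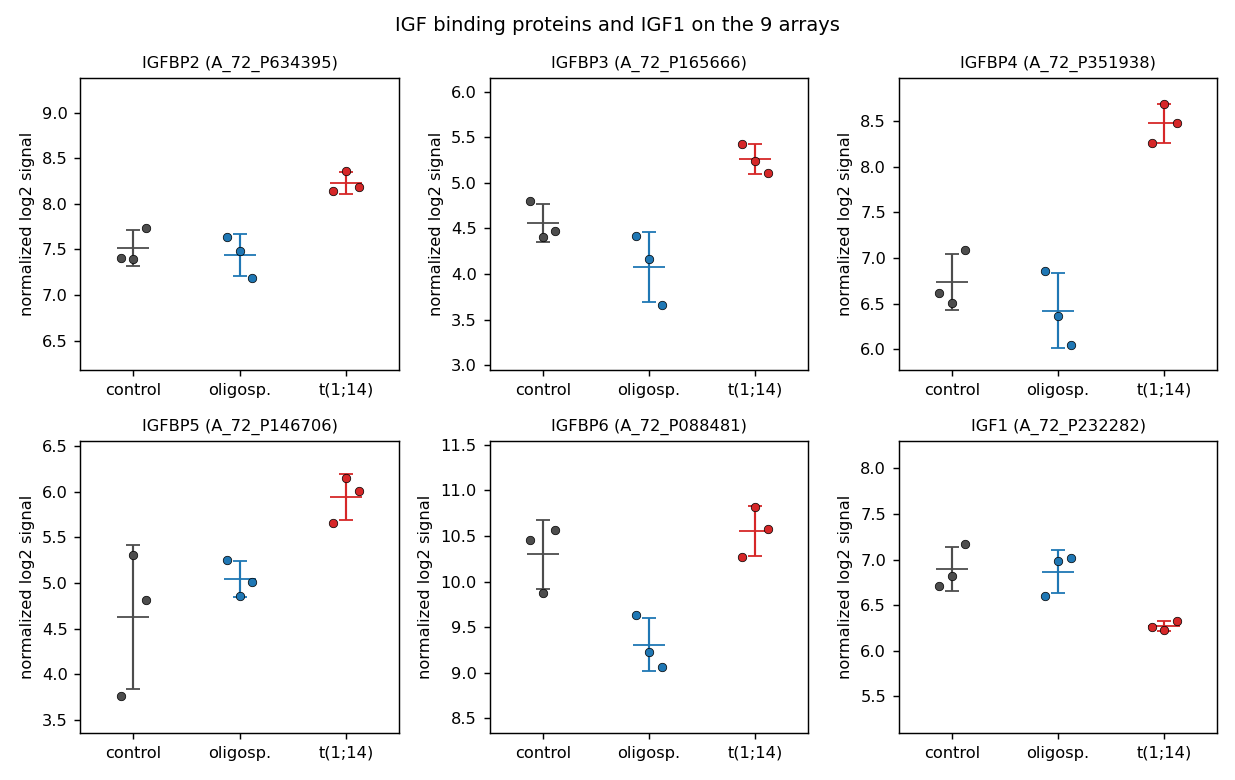
Normalized log2 signal (vertical axis, each panel spanning the same number of log2 units) of the highest probe of each binding protein gene and of IGF1 in control, oligospermic (oligosp.) and t(1;14) arrays. Points are single arrays and bars are the mean ± SD of 3 arrays. For IGFBP2, IGFBP3, IGFBP4 and IGFBP5 the t(1;14) points lie above all others, for IGFBP6 the oligospermic points lie below all others, and for IGF1 the t(1;14) points lie below all others.

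Counted over the 27 probes other than PAPPA, the comparison of t(1;14) with control tested 24. Of these, 4 passed and were higher, 0 were lower and 0 were differential in limma, with 11 at an unadjusted p under 0.05 (58.1% of all probes tested). Among all probes tested, 15.6% passed as higher and 15.6% as lower, so the share of members that passed (4 of 24) was below the background of 31.2%. The probes that passed belonged to IGFBP2 (2 probes), IGFBP4 and IGF2R, the last only on the probe that was dim in control. With the filter on dim probes set in both groups, 22 were tested and 4 passed, 3 of them the same. The median difference of the tested members was 0.29.

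The comparison of t(1;14) with oligospermic arrays also tested 24 of the 27 probes, and 11 passed as higher and 1 as lower, with 17 at an unadjusted p under 0.05 (68.7% of all probes tested). Over all 40567 probes tested, 27.1% passed as higher, 22% as lower and 49.1% in all, so 12 of 24 members was close to the background, and 1 member probe was differential beside 6.82% of all. With the filter in both groups, 21 were tested and 12 passed, 11 of them the same. IGF1 had a probe that passed in each direction. The comparisons share the t(1;14) arrays and are not independent of each other.

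Between oligospermic and control arrays, 22 of the 27 probes were tested and 0 passed in limma, with 5 at an unadjusted p under 0.05. Over all 39713 probes, 0.0755% passed, 9.84% had an unadjusted p under 0.05 and 15.7% had groups without overlap. The 5 were the IGF1 probe A_72_P185381 at -1.08 (-0.54 without control array 3), the IGF2 probes A_72_P599193 at -0.41 (-0.26 without control array 3) and A_72_P544532 at -0.50, and the IGFBP6 probes A_72_P088481 at -0.99 and A_72_P710138 at -1.00. In each of them all oligospermic arrays lay below all control arrays. No other tested probe reached a difference of 0.5 in size.

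**Figure D3:**
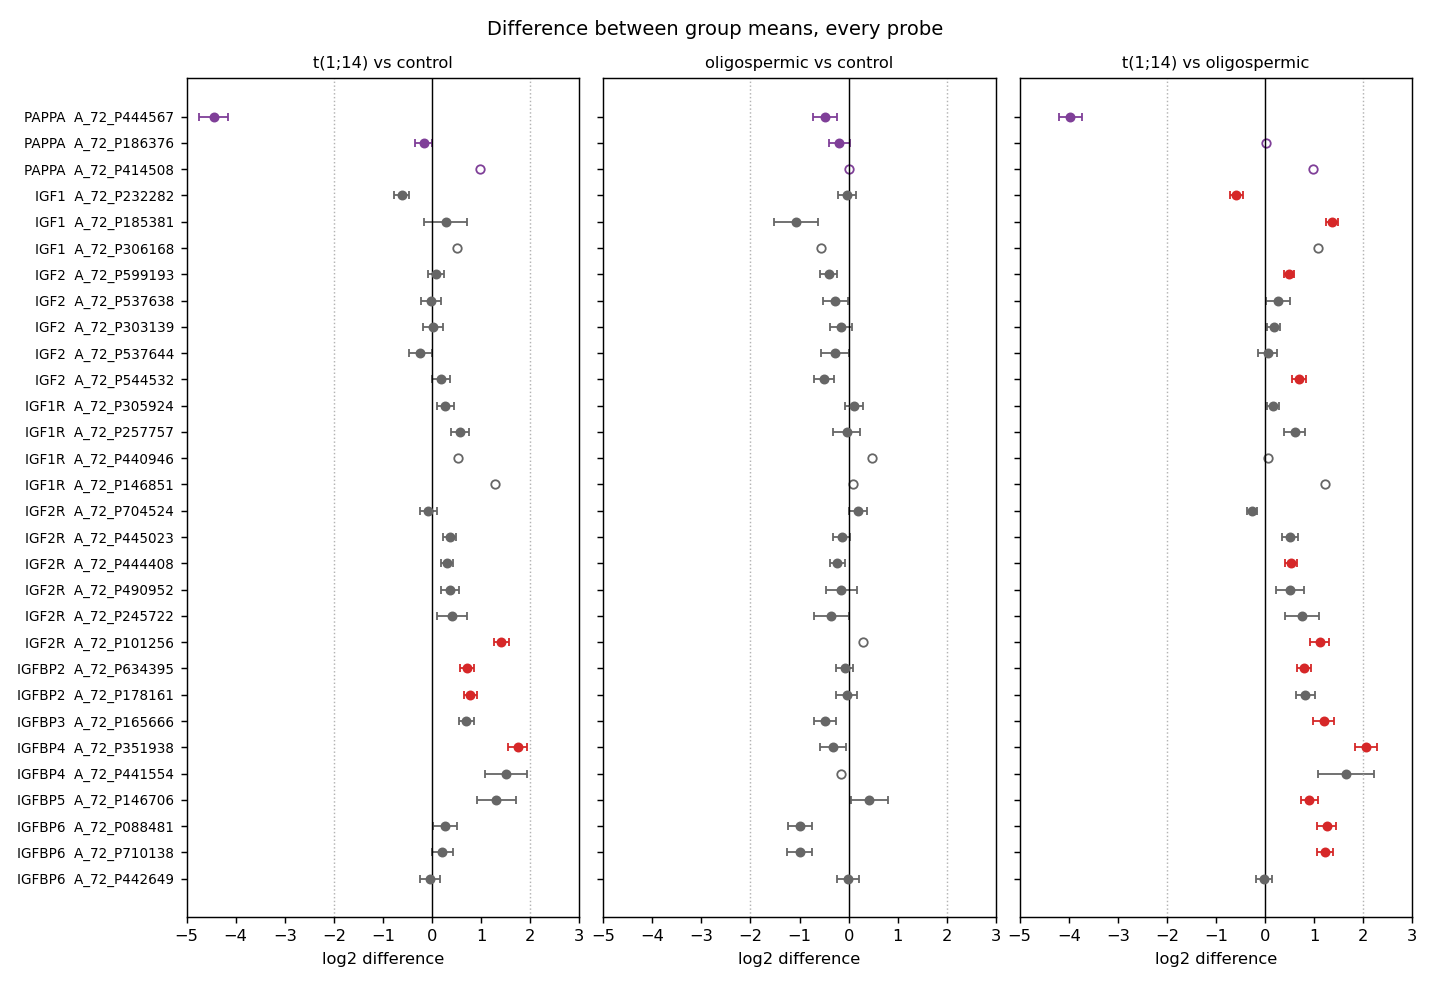
Difference of group means on the log2 scale (horizontal axis) for each of the 30 probes in the 3 comparisons. Bars are the standard error of the fit, red marks an adjusted p of at most 0.01, grey a tested probe above it, purple PAPPA (described without a test), and open circles probes too dim to be tested. Dotted lines mark a difference of 2 in either direction. The PAPPA probe A_72_P444567 lies at -4.45 and -3.97 in the comparisons of t(1;14), and no red point appears between oligospermic and control.

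A list of 44 further genes of the pathway (regulators of PAPPA, other binding proteins and proteases, receptors, adaptors, kinases and their brakes, growth hormone signalling, IGF2 RNA-binding proteins) was matched to 27 genes on the array, with 1 probe per gene. For each gene this was the probe of highest mean signal. Further probes of the same gene, as for STC1 (3 in all), INSR and GHR (4 each), were not read, so their agreement was not tested. The probe matched to STAT5A is named STAT5B on the array, so these entries may read 1 gene. Between t(1;14) and control 24 were tested, 7 passed as higher, 1 passed as lower and 0 were differential, against 31.2% of all probes. Their median difference was 0.50.

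STC1, a stanniocalcin that binds and inhibits PAPPA, had the largest rise. It read 6.20, 5.39 and 5.75 in control, 5.59, 5.32 and 5.29 in oligospermic and 7.68, 7.84 and 7.63 in t(1;14) arrays, with no overlap of t(1;14) and the rest. It was higher by 1.94 against control (adjusted p = 8.23e-04, limma) and by 2.31 against oligospermic (adjusted p = 2.56e-05, limma), where it was the 1 differential gene of the list. STC2, the other PAPPA-inhibiting stanniocalcin, is named here after its values were seen: it was higher than control by 0.64 (adjusted p = 0.00655, limma; 0.0152 with slide as a block) and differed from oligospermic by 0.54 without passing.

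INSR, the insulin receptor, read 8.64, 8.48 and 8.12 in control, 8.45, 8.10 and 7.75 in oligospermic and 9.75, 10.21 and 9.95 in t(1;14) arrays. It was higher in t(1;14) by 1.55 against control (adjusted p = 0.00115, limma) and by 1.87 against oligospermic. PIK3CB, a catalytic subunit of phosphoinositide 3-kinase, was higher by 1.45 (adjusted p = 0.0057, limma) and 1.55. In both genes all t(1;14) arrays lay above the other 6.

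GHR, the growth hormone receptor, fell by 1.94 against control (adjusted p = 0.00324, limma; 0.0107 with slide as a block, which did not pass) and fell by 1.84 against oligospermic, with t(1;14) arrays at 6.40 to 6.72 and control arrays at 7.77 to 8.94. It was the 1 gene of the list that passed as lower than control. JAK2, the kinase that GHR activates, was higher by 0.92 (adjusted p = 0.0047, limma) and 0.68, and PTPN11, a phosphatase of growth factor signalling, by 0.75 (adjusted p = 0.00578, limma) and 0.94. FOXO1, also named after its values were seen, passed as higher against control, though not with slide as a block (adjusted p = 0.012, limma).

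Against oligospermic, 24 genes of the list were tested, and 9 passed as higher, 3 as lower and 1 was differential, beside 49.1% of all probes that passed. Between oligospermic and control, 0 of 23 passed in limma, beside 0.0755% of all probes, and 2 had an unadjusted p under 0.05, beside 9.84%.

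**Figure D4:**
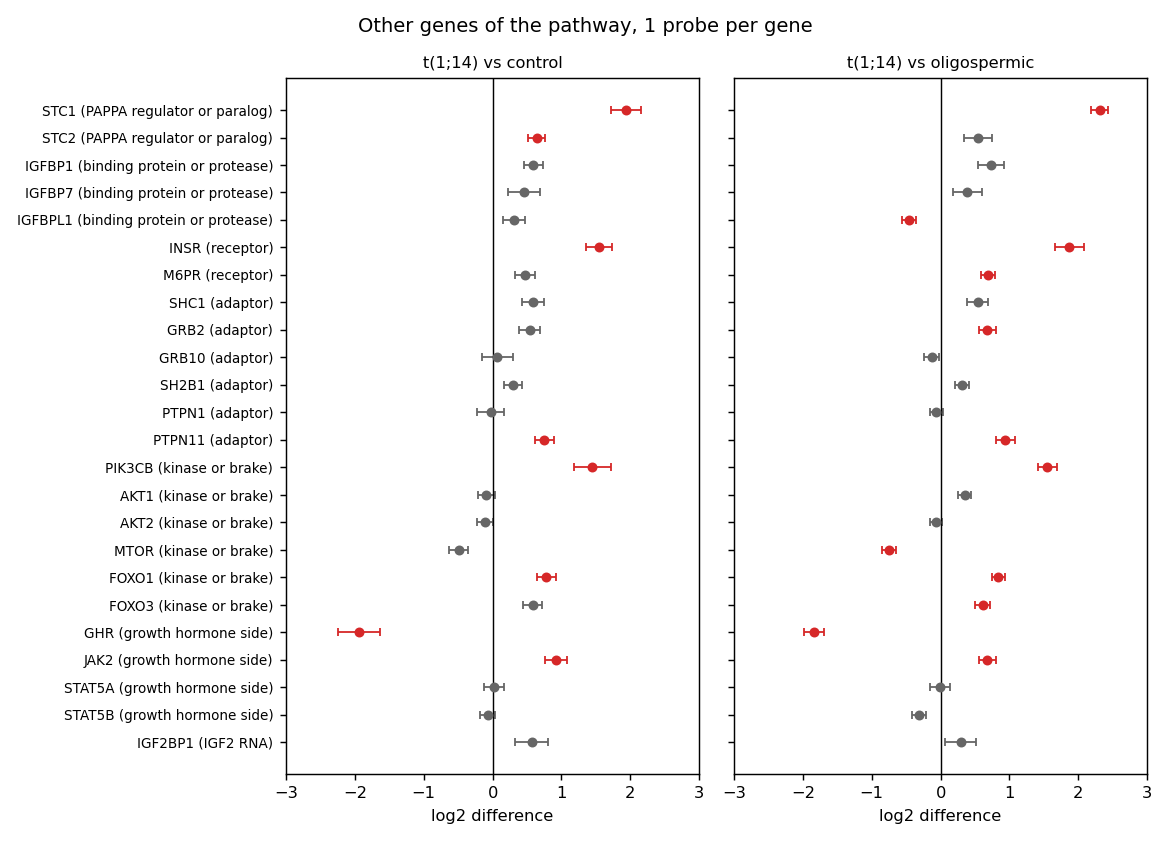
Difference of group means on the log2 scale (horizontal axis) for the 24 other pathway genes tested, 1 probe per gene, with the standard error of the fit. Red marks an adjusted p of at most 0.01 in limma. STC1 (1.94 and 2.31) and INSR (1.55 and 1.87) lie farthest to the right, and GHR (-1.94 and -1.84) farthest to the left.

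Markers of the cell types of the testis moved between the same groups. Their calls against control stand beside 31.2% of all probes tested that passed, 15.6% as higher and 15.6% as lower, and 5.61% that were differential. Leydig cells, which make testosterone, were followed by 5 matched markers of 6, of which 4 were higher and differential in t(1;14) against control (STAR 3.72, LHCGR 2.73, CYP11A1 2.57, CYP17A1 2.39), while INSL3 was saturated on 2 t(1;14) arrays and 1 oligospermic array, so its difference was not measured in full. The summed signal of the 4 was 12.55 to 12.91 in control, 12.49 to 13.13 in oligospermic and 15.61 to 15.81 in t(1;14) arrays on the log2 scale. Of 4 endothelial markers 2 were higher, with sums of 9.07 to 9.72, 9.31 to 9.64 and 10.38 to 10.67. Of 6 matched spermatid markers, PRM1 was saturated on all 9 arrays, PRM2 on 7 and TNP2 on 4. The other 3, ACR, ODF1 and SPATA18, were lower in t(1;14), with sums of 16.64 to 16.77, 16.76 to 17.02 and 15.09 to 15.20. TNP2, saturated on 1 control array and all 3 oligospermic arrays, also passed as lower.

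Of 7 matched Sertoli cell markers WT1 was lower, by 1.43 on the log2 scale, and 0 were higher, with sums of 14.30 to 15.59 in control, 14.38 to 15.06 in oligospermic and 15.28 to 15.46 in t(1;14) arrays. Most of this sum is CLU, which alone read 14.08 to 15.49, 14.17 to 14.92 and 15.20 to 15.38. Of 3 matched peritubular markers CNN1 was lower, and the sums of the groups overlapped. One immune marker, CD14, was higher by 1.30, while the T cell gene CD3E was well above background on no array of the 9. The spermatogonium marker UCHL1 and the spermatocyte marker HORMAD1 were higher. Among the other spermatogonium markers, KIT did not pass against control (adjusted p = 0.0124, limma) and GFRA1 was well above background on no array. The other spermatocyte marker, SPO11, fell by 1.03 on the log2 scale against control and was higher than oligospermic by 1.11 (adjusted p = 5.58e-04, limma). With slide as a block, the calls against control of CNN1, CD14, SPO11 and the endothelial marker VWF no longer passed, at an adjusted p of 0.0134 to 0.0188 in limma. The matched spermatid and Leydig cell markers were well above background on all 9 arrays, and of the 2 matched liver markers ALB was on 8 and TTR on 1. The part of these cell types in the values of PAPPA, IGFBP2, IGFBP4 and the other members was not tested.

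The genes whose signal over the 9 arrays was most like that of the PAPPA probe A_72_P444567 were TF (transferrin) and RBMS1, both with a Pearson r of 0.998, DCAF5 and TUBB2B with 0.997, and FAM170B with 0.996, among 5965 genes compared. The differences of t(1;14) from control were -2.72, -1.50, -1.87, -1.29 and -1.78 in that order. The 9 arrays fall into t(1;14) and the rest for such genes, so r describes that gap, and 66 genes reached 0.99. Within the axis, taking the highest probe of each gene, the IGF1 probe A_72_P232282 was most like it, at 0.84, and those of IGFBP4 and IGFBP2 ran most opposite, at -0.95 and -0.94. The likeness is that of 1 IGF1 probe, since A_72_P185381 was higher in t(1;14) than in oligospermic arrays.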

How the data were processed

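Cyanine 3-labelled RNA was hybridized to a custom 60K Agilent porcine array. The deposited spot values are processed signals in intensity units, background-subtracted and detrended by Feature Extraction 11.5.1.1 and not normalized between arrays. A table of log2 values that the authors deposited covers 38759 probes (25 of the 30 member probes) and is quantile normalized. For the values here, log2 was taken of these intensities and all 9 arrays were quantile normalized together (R 4.3.3, limma 3.58.1, and data.table at version 1.17.8). Probes well above background without outlier flag on at least 2 of 3 arrays of 1 group were tested in limma on the 6 arrays of a comparison. The thresholds follow the study's methods. Intervals are 95% from the moderated fit. A fold bound replaces a dim signal by the lowest signal well above background on that array, where this is the larger.

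Members, gene lists and tests were chosen with earlier results of these data known. Named were all members, and of the pathway list those past both thresholds or the 5 largest changes that passed, and the 5 genes most like PAPPA. STC2 and FOXO1 were added after their values were seen. 1 gene of the pathway list is not reported here and was left out of its counts. The fit was also run on simulated data, whose outcome is not given here and lends no support to the calls. Same-numbered oligospermic and control arrays correlated in their deviations at 0.478, 0.136 and 0.101. They shared slides, so a pairing by number cannot be told apart from an effect of the slide. Same-numbered arrays of t(1;14) and control correlated at -0.285, -0.194 and 0.139, and those of t(1;14) and oligospermic at -0.421, -0.335 and 0.121. Arrays on the same slide correlated at 0.339, 0.109 and 0.119 for t(1;14) and control and at 0.489, 0.292 and 0.33 for t(1;14) and oligospermic, and slide as a block is given beside the named calls that it changed. Alternatives were another scaling, background correction, filter or model, the authors' log2 values, slide or replicate number as a block, a fold threshold of 1, the mean of a gene's probes and leaving out each array.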

Additional observations from a re-analysis of the deposited data

Results flagged for a closer look

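Of the 7 spots outside the set's naming rule, only those with every t(1;14) array above every control array were flagged. Their direction thus follows from the flag. The second spots of the PAPPA and IGF1 sequences were lower on every t(1;14) array, by differences of -3.55 and -0.70, and were not flagged. Over all probes tested, 62% had groups without overlap in either direction. A spot annotated to an IGF2R transcript (A_72_P513762) read 11.97, 11.28 and 11.92 in control and 12.64, 12.64 and 12.63 in t(1;14) arrays, a difference of 0.91 (adjusted p = 0.0109, limma). A spot annotated to the IGFBP4 transcript (CUST_7626_PI428644611) read 4.62, 4.27 and 3.94 in control and 4.95, 5.05 and 5.19 in t(1;14) arrays, a difference of 0.79 (adjusted p = 0.0156, limma). A second spot of the sequence of the IGF2R probe A_72_P245722 differed by 0.29 (adjusted p = 0.142, limma). None of these passed against control, and against oligospermic the first did, at 1.13 (adjusted p = 0.00132, limma).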

How the results depend on the processing

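With the replicate number as a block, the members that passed fell from 4 to 2 in t(1;14) against control and from 12 to 4 against oligospermic, and the pathway genes from 8 to 3 and from 12 to 5. It changed no call between oligospermic and control, where the count stayed at 0. With slide as a block the members were 3 and 16, of which 3 and 12 also passed without it, and the pathway genes against control fell from 8 to 5. At a fold threshold of 1, 2 members were differential against control and 6 against oligospermic. Both counts include the IGF2R probe A_72_P101256, which entered the test through the t(1;14) arrays alone. Its difference from oligospermic was 0.96 with dim arrays raised. Shares of all probes under the blocks, at this fold threshold or without single arrays were not computed. These counts thus have no background beside them and are not read as a result about the members. At the threshold of 2, normexp left 0 differential against oligospermic.

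Leaving out each array in turn gave 2 to 5 members and 2 to 5 pathway genes against control, and 5 to 12 members, 0 to 1 differential members and 8 to 12 pathway genes against oligospermic. Against control, 2 members passed without any one t(1;14) array. Against oligospermic, IGFBP4 was not differential without oligospermic array 3 or t(1;14) array 2, although it passed there.

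Of 432 alternative values for single genes other than PAPPA, 374 kept direction and side of the threshold, 40 lost the call, 5 gained it and 13 changed sign. The mean of a gene's probes gave IGF2R 0.46 against control, -0.14 for oligospermic against control and 0.52 against oligospermic, and IGF1 0.38 against oligospermic. IGF2R against control was 0.04 when scaled to the 75 percentile. Leaving out 1 array gave -0.22 to 0.08 for IGF2R (positive without control array 3) and -0.02 to 0.23 for IGF2 (negative without control array 1) against control. For oligospermic against control it gave -0.02 to 0.76 for IGFBP5 (negative without control array 1), -0.02 to 0.25 for IGF1R (negative without control array 2), -0.12 to 0.10 for IGF1 (positive without control array 3 or oligospermic array 1) and -0.18 to 0.05 for IGFBP2 (positive without control array 3 or oligospermic array 3, at 0.03 and 0.05). The cause of these changes was not tested. PAPPA lay at -4.70 to -1.88 against control, and the filter in both groups gave it no value there. Dim probes limit PAPPA, IGFBP4 and IGF2R, as given beside their values.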
